A study of Homo sapiens with 12 samples.

Results

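The genes examined encode the core machinery and the main regulators of pre-mRNA splicing. They were taken from the gene names in 6 peak lists, by symbols that begin with HNRNP, SNRP or U2AF, or with SRSF, SF3A, SF3B or PRPF followed by a digit. The rule found 62 of 10830 listed genes: 11 SR proteins, 20 hnRNPs, 9 SNRP genes, 7 SF3A and SF3B subunits, 3 U2AF genes and 12 PRPF genes. It used only names, not measured values, but a gene could be found only if it carried a peak in at least 1 list.

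SR proteins bind exons through RNA recognition motifs and carry a tail rich in arginine and serine, the RS domain, through which they recruit other splicing factors. The hnRNPs bind nascent transcripts, often oppose SR proteins at splice sites, and several carry a glycine-rich region. SNRP genes encode the Sm ring and specific proteins of the U1 and U2 snRNPs, SF3A and SF3B are parts of the U2 snRNP that hold the branch site, U2AF reads the 3′ splice site, and PRPF proteins serve mainly in the U4/U6.U5 tri-snRNP and in catalytic activation. Many of these genes control their own level through alternative exons that send the transcript to nonsense-mediated decay. METTL16 methylates U6 snRNA and MAT2A RNA, and eIF3 is the large factor that joins mRNA to the small ribosomal subunit.

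The data were RNA immunoprecipitation sequencing (RIP-seq) of HepG2, a human liver cancer line long in use. Stable cell lines were made by infection with pmiRNA1-3XFlag-METTL16, pSIN4-3XFlag-eIF3a or pSIN4-3XFlag-eIF3b, so each group overexpressed the tagged protein it was used to pull down, and cells were UV crosslinked per the study's methods. There were 6 RIP samples, 2 per protein, and 6 inputs, which entered only through the authors' peak calling. The labels give a Flag antibody for METTL16 and eIF3b and an eIF3a antibody for eIF3a, whereas the list names say flag for all, so antibody and protein cannot be told apart for eIF3a. Labels give replicate numbers only, and p-values measure the spread between these samples.

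A peak is a stretch of exon bases where RIP reads exceeded input reads in the authors' calling. The lists hold no RNA level and no read counts, so sequencing depth is unknown and the part that mRNA abundance plays in any share below was not tested. The lists held 10830 genes in all, of which 5226 (eIF3a replicate 2) to 8166 (eIF3a replicate 1) had a peak in a given list. Of 13 hepatocyte and hepatoblast markers, 12 had a peak and 4 had one in all 6 lists, whereas TTR had none. Of all listed genes, 25.2% had a peak in all 6 lists. Leukocyte markers had a peak in 3 of 4 cases, fibroblast markers in 1 of 3 and endothelial markers in 2 of 3, and 0 of these had one in all 6 lists. LYZ and VWF, however, had a peak in 5 lists and PECAM1 in 4, whereas ALB and FGG had one in 1 list and AFP and TF in 2. The markers thus did not separate liver genes from those of other cell types. The eIF3a replicate 2 list stood apart from the others over the splicing genes, and the main results are also given without it.

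Splicing genes carried a peak more often than listed genes as a whole in 5 of the 6 lists. In METTL16 replicate 1, 49 of 62 had a peak (79.0%, 95% Wilson interval 67.4 to 87.3) against 53.8% of all listed genes, and in METTL16 replicate 2 the count was 52 (83.9%, 72.8 to 91.0) against 58.5%. In eIF3a replicate 1, 56 had a peak (90.3%, 80.5 to 95.5) against 75.4%. The exception was eIF3a replicate 2, where 29 had a peak (46.8%, 34.9 to 59.0) against 48.3%, so that the share of splicing genes was at the background. In eIF3b, 54 (87.1%, 76.6 to 93.3) and 55 (88.7%, 78.5 to 94.4) had a peak against 74.5% and 69.9%. These intervals cover counting over genes only.

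With a peak in both replicates required, which is called bound below, METTL16 bound 43 of the 62 (69.4%) against 42.6% of all listed genes. eIF3b bound 51 (82.3%) against 60.0%. eIF3a bound 29 (46.8%) against 42.4%, and every splicing gene in eIF3a replicate 2 was among the 56 of replicate 1. A peak in all 6 lists was present for 23 (37.1%, 26.2 to 49.5) against 25.2%. A further 22 had a peak in 5 lists, and 18 of these lacked one only in eIF3a replicate 2 and 4 only in METTL16 replicate 2. The rarely listed genes were SNRPB, SNRPC, U2AF1 and U2AF1L5 with a peak in 1 list, SNRPD2 and PRPF4 in 2 lists, and HNRNPF, PRPF18, SF3B4, SNRPB2 and SNRPN in 3 lists.

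The mean share with a peak was 81.5% ± 3.42 (SD, n = 2) in METTL16, 68.5% ± 30.8 in eIF3a and 87.9% ± 1.14 in eIF3b. The SD of eIF3a exceeded its distance from either of the other proteins. An exact two-sided permutation test over lists, which with 2 against 2 cannot go below 0.333, gave p = 1.00 for METTL16 against eIF3a, p = 0.333 for METTL16 against eIF3b and p = 1.00 for eIF3a against eIF3b (1.00 each after Benjamini-Hochberg adjustment over the 3 pairs). Without eIF3a replicate 2, the difference of METTL16 from eIF3a turned from 12.9 to -8.87 percentage points. Measured as the excess over all listed genes of the same list, METTL16 stood at 25.3 ± 0.105 percentage points (SD, n = 2), eIF3a at 6.72 ± 11.6 and eIF3b at 15.7 ± 4.36. The 2 METTL16 lists lay above all 4 eIF3 lists in this excess, by 14.1 percentage points on average, and the exact permutation p was 0.133, with 0.067 the smallest possible. That comparison was chosen after seeing the data. With the 5000 peaks of smallest p per list it fell to 5.54 (exact permutation p = 0.933), with both METTL16 lists below eIF3a replicate 1 and eIF3b replicate 1, and it turned to -5.67 (exact p = 0.667) when only peaks of at least 4-fold enrichment were kept.

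The excess of splicing genes depended on which peaks were kept. When each list was limited to its 5000 peaks of smallest p, 58.1% to 62.9% of the splicing genes kept a peak in the 5 lists other than eIF3a replicate 2, against 26.9% to 29.4% of all listed genes, and 27.4% against 26.7% in eIF3a replicate 2. When only peaks of at least 4-fold enrichment were kept, the shares were 30.6% and 24.2% in METTL16 against 27.2% and 30.9%. They were 50% and 8.06% in eIF3a against 37.7% and 21.9%, and 43.5% and 51.6% in eIF3b against 42.4% and 35.0%. At this fold an excess was thus left in eIF3a replicate 1 and eIF3b replicate 2 and little in METTL16 replicate 1 and eIF3b replicate 1. In METTL16 replicate 2 and eIF3a replicate 2 the splicing genes lay below all listed genes. The median fold enrichment of peaks on the splicing genes was below that of all peaks in every list, for example 2.34 and 2.33 against 3.09 and 3.40 in METTL16 and 2.57 and 2.62 against 3.20 and 2.94 in eIF3b. A p-value of this kind depends on the number of reads as well as on enrichment.

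**Figure D1:**
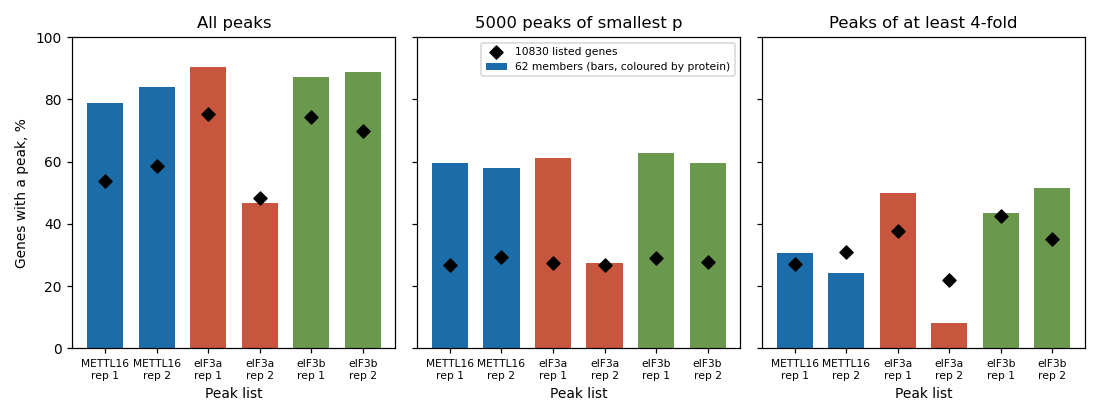
Share of genes with a peak (%, y axis) in each of the 6 peak lists (x axis) for all peaks, the 5000 peaks of smallest p per list and peaks of at least 4-fold enrichment. Bars are the 62 splicing genes and diamonds the 10830 listed genes. The bars stand above the diamonds in the left panel in all lists but eIF3a replicate 2, which in the middle panel has 27.4% against 26.7%. At 4-fold METTL16 replicate 2 and eIF3a replicate 2 lie below them.

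The canonical mRNA of the splicing genes had a median of 3058 bases against 3478 over the listed genes placed on the annotation, and the coding sequence took a median of 48.9% of it against 49.9%. Among genes of at least the median summed exon length of 5523 bases, METTL16 bound 80.0% of the splicing genes against 45.2%, eIF3a 60.0% against 57.3% and eIF3b 96.7% against 69.5%. Among shorter genes the values were 63.3% against 40.5%, 36.7% against 27.9% and 73.3% against 50.9%. For METTL16 and eIF3b the shares stood above the background in both length classes. For eIF3a the share was near the background in the longer genes (18 of 30). In the shorter genes (11 of 30) it stood above by less than for the other proteins.

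Among the SR proteins, all 11 were bound by eIF3b (100% against 60.0% of all listed genes), 8 by METTL16 (72.7% against 42.6%) and 7 by eIF3a (63.6% against 42.4%), and 5 had a peak in every list (45.5% against 25.2%). SRSF1, an SR protein that acts in both constitutive and alternative splicing, had 44.3% and 51.5% of its coding sequence under peaks in the METTL16 lists and 100% in each of the 4 eIF3 lists. SRSF5, which is induced by growth signals and insulin, had 74.6% and 82.9% covered in METTL16, 100% and 90.4% in eIF3a and 100% in both eIF3b lists. SRSF2 had 43.7% and 92.9%, then 43.7% in eIF3a replicate 2 and 73.3% in eIF3b replicate 1, and 100% in the other lists. Coverage of the reading frame in these genes thus ran from 43.7% to 100%, depending on the list. SRSF11, whose smallest-p peak ranked in the top 1.54%, 2.39% and 2.11% of the genes of eIF3a replicate 1 and the eIF3b lists, ranked in the top 31.4% and 39.4% in METTL16.

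SRSF3, the smallest SR protein, had 36.6% and 84.8% of its coding sequence covered in METTL16, 92.7% in eIF3a replicate 1, 24.4% and 62.0% in eIF3b, and no peak in eIF3a replicate 2. SRSF7, which carries a zinc knuckle beside its RNA recognition motif, had 34.0% and 58.6% in METTL16, 100% in eIF3a replicate 1 and 63.3% and 91.8% in eIF3b, and also lacked a peak in eIF3a replicate 2. SRSF6 was missing only in METTL16 replicate 2, with 49.4% in replicate 1, 99.0% and 26.2% in eIF3a and 84.6% and 93.2% in eIF3b. Replicates of a protein thus differed widely in how much of the same transcript was called.

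Of the 20 hnRNPs, METTL16 bound 17 (85.0% against 42.6% of all listed genes), eIF3b 17 (85.0% against 60.0%) and eIF3a 9 (45% against 42.4%, at the background), and 7 had a peak in all 6 lists (35.0% against 25.2%). HNRNPU, a nuclear scaffold protein that binds RNA and chromatin, had the best median rank over the lists, its smallest-p peak lying in the top 1.36% and 1.69% of genes in METTL16, 3.55% in eIF3a replicate 1 and 0.707% and 1.82% in eIF3b, against 42.7% in eIF3a replicate 2. HNRNPA2B1 ranked ahead of it in eIF3a replicate 1 (0.502%) and in eIF3b replicate 2 (1.57%). The coding sequence of HNRNPU was covered over 52.9% and 60.1% in METTL16, 64.9% and 3.63% in eIF3a and 55.3% and 70.9% in eIF3b. HNRNPA2B1, which binds transcripts in nuclear processing and transport, had 62.4% and 100% in METTL16, 100% and 17.4% in eIF3a and 82.7% and 100% in eIF3b. HNRNPC, a pre-mRNA packaging protein that binds uridine tracts, had 37.4% and 70.2%, then 46.9% in eIF3a replicate 1 and 34.0% and 46.8% in eIF3b. HNRNPK, which binds poly(C), was the least covered of these, with 19.3% and 32.2% in METTL16, 23.6% in eIF3a replicate 1 and 10.8% and 32.3% in eIF3b. Neither HNRNPC nor HNRNPK had a peak in eIF3a replicate 2.

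The highest enrichments among all splicing genes were also in hnRNPs. HNRNPUL2, a relative of HNRNPU, had a highest peak of 34.0-fold and 39.3-fold in METTL16, 22.3-fold and 2.62-fold in eIF3a and 19.4-fold and 26.4-fold in eIF3b. Of its peaks, 18 also lie on exons of the readthrough gene HNRNPUL2-BSCL2, so that these cannot be assigned to HNRNPUL2 alone. HNRNPR, which shares RNA recognition motifs with SYNCRIP, reached 17.2-fold and 3.23-fold in METTL16, 44.6-fold in eIF3a replicate 1 and 12.4-fold and 19.1-fold in eIF3b. In HNRNPU a 3′ UTR peak gave 19.9-fold and 19.1-fold in METTL16, 8.34-fold and 6.83-fold in eIF3a, and 12.9-fold and 51.4-fold in eIF3b. The eIF3b replicates stood further apart at this HNRNPU peak than the replicates of the other proteins.

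Of the 9 SNRP genes, METTL16 bound 4 (44.4% against 42.6%, at the background), eIF3b 4 (44.4% against 60.0%) and eIF3a 1 (11.1% against 42.4%). Their canonical mRNAs were short, with a median of 1277 bases. SNRPD3, a Sm ring protein, was the sole member with a peak in every list, with 39.4% and 94.2% of its coding sequence covered in METTL16, 47.2% and 0% in eIF3a and 23.9% and 53.3% in eIF3b. SNRPA, the A protein of the U1 snRNP, had 28.2% in METTL16 replicate 2, 27.0% in eIF3a replicate 1 and 35.0% and 33.0% in eIF3b, and no peak in the other lists. SNRPN, a Sm B/B′ paralogue of brain tissue, had 29.0% and 41.5% in METTL16 and 33.2% in eIF3b replicate 1. SNRPB, its ubiquitous counterpart, had a peak in METTL16 replicate 2 alone, over 55.5% of the coding sequence, and SNRPC, the U1 C protein, likewise over 37.3%. SNRPB and SNRPN are similar in sequence, and how reads were divided between them is not given in the sources used here.

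In the SF3A and SF3B complexes, METTL16 bound 5 of 7 (71.4% against 42.6%), eIF3b 6 (85.7% against 60.0%) and eIF3a 3 (42.9% against 42.4%, at the background). SF3A2 was covered over 76.5% of its coding sequence in both METTL16 lists, 70.0% in eIF3a replicate 1 and 100% and 74.3% in eIF3b. SF3B2 had 53.4% and 39.0%, then 34.0%, then 62.8% and 52.7% in the same lists, and SF3A1 had 37.8% and 18.9%, 16.4%, and 60.3% and 39.2%. All 3 lacked a peak in eIF3a replicate 2. SF3B1, the branch-site clamp that is mutated in several cancers, went another way between proteins: 0.690% of its coding sequence was covered in METTL16 replicate 1 and none in replicate 2, against 67.2% and 9.94% in eIF3a and 69.6% and 81.7% in eIF3b. SF3B3 was the reverse case for eIF3a replicate 2, with 11 peaks over 3581 bases there and 2 to 4 peaks over 362 to 844 bases in the other lists.

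U2AF2, which binds the polypyrimidine tract, was the single U2AF gene of the 3 bound by any protein. That is 33.3% for each protein, against 42.6% in METTL16, 42.4% in eIF3a and 60.0% in eIF3b over all listed genes. U2AF2 also had a peak in all 6 lists (33.3% against 25.2%). Its coding sequence was covered over 30.3% and 39.6% in METTL16, 34.2% and 0.910% in eIF3a and 61.9% and 55.1% in eIF3b. U2AF1, which contacts the AG of the 3′ splice site, and U2AF1L5, its duplicate on chromosome 21, were each listed in METTL16 replicate 2 only, by the same peak of 2.06-fold, and reads of these copies cannot be told apart.

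Of the 12 PRPF genes, eIF3b bound all 12 (100% against 60.0%), METTL16 8 (66.7% against 42.6%) and eIF3a 8 (66.7% against 42.4%), and 7 had a peak in all 6 lists (58.3% against 25.2%). PRPF6, which bridges the U5 and U4/U6 snRNPs, had the most even coverage, with 53.8% and 55.3% of its coding sequence in METTL16, 57.5% and 31.7% in eIF3a and 77.9% and 71.8% in eIF3b. PRPF4B, a kinase of the tri-snRNP, had 24.8% and 14.9% in METTL16, 78.3% and 46.7% in eIF3a and 66.3% and 84.2% in eIF3b. PRPF3, a U4/U6 protein, had 11.6% and 10.2% in METTL16, 42.9% and 66.7% in eIF3a and 71.8% and 83.3% in eIF3b. In PRPF4B and PRPF3 both METTL16 lists lay below all 4 eIF3 lists.

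PRPF39, a U1 snRNP-associated protein, had peaks in all 4 eIF3 lists, over 80.3%, 26.9%, 27.0% and 49.2% of its coding sequence, and in no METTL16 list. PRPF4, a U4/U6 protein, had peaks in the eIF3b lists only, over 5.75% and 0% of its coding sequence. PRPF8, the large U5 protein at the catalytic centre, was covered over 1.73% to 2.58% in the 4 lists that held it, a single peak across exons 2 and 3 in each. PRPF19, the ubiquitin ligase of the complex that activates the spliceosome, was unusual in its 3′ UTR, of which 38.9% and 53.5% was covered in METTL16, 38.9% and 24.4% in eIF3a and 53.5% and 19.5% in eIF3b.

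**Figure D2:**
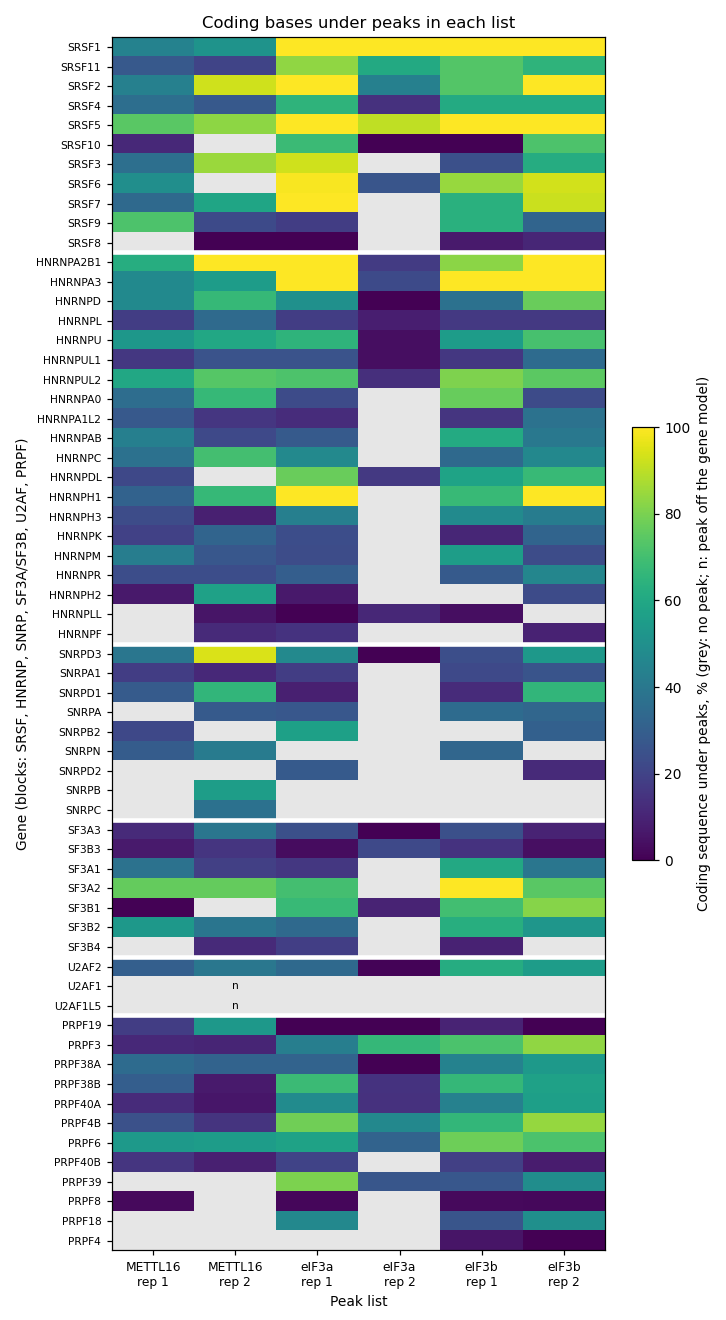
Share of the canonical coding sequence under peaks (%, colour scale) for the 62 splicing genes (rows, grouped by family) in the 6 peak lists (columns); n marks a peak off the gene model. SRSF1 reaches 100% in the 4 eIF3 lists, and the eIF3a replicate 2 column holds the fewest genes, 29 of 62.

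Peaks on the splicing genes lay in coding sequence more often in METTL16 than in eIF3. Of 732 peaks on these genes, 729 could be placed on the gene model, and each was assigned by its centre base. In METTL16, 88 of 110 (80.0%) and 75 of 84 (89.3%) were centred in coding sequence, against 61.0% and 68.7% of all peaks of the same lists. In eIF3a the shares were 56.8% and 58.3% against 56.8% and 58.0%, and in eIF3b 67.3% and 62.3% against 61.0% and 57.7%. Peaks centred in the 3′ UTR made up 12.7% and 4.76% in METTL16, 37.7% and 37.5% in eIF3a and 25.9% and 32.5% in eIF3b, against 31.8% and 23.9%, 37.9% and 38.4%, and 30.2% and 36.0% over all peaks.

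The mean coding share was 84.6% ± 6.57 (SD, n = 2) in METTL16, 57.6% ± 1.09 in eIF3a and 64.8% ± 3.54 in eIF3b. The 3 groups did not overlap, and each pair gave an exact two-sided permutation p of 0.333, the smallest that 2 against 2 lists can give. The METTL16 lists set against the 4 eIF3 lists, a comparison added after seeing the data, differed by 23.4 percentage points with an exact p of 0.067, again the smallest possible. In excess over all peaks of the list, METTL16 stood at 19.8 ± 1.17 percentage points (SD, n = 2), eIF3a at 0.183 ± 0.231 and eIF3b at 5.52 ± 1.19. The 2 METTL16 lists exceeded the eIF3 lists by 16.9 percentage points in this excess, with an exact p of 0.067. The difference kept its direction when any 1 list was left out (16.0 to 18.1) and when the 118 peaks on exons of another gene were removed (18.1), but it was smaller by other measures: 11.6 counted over bases under peaks (exact p = 0.133), 7.80 with the peak of smallest p per gene (exact p = 0.400) and 5.22 with the 5000 peaks of smallest p (exact p = 0.200).

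The gap narrowed when each gene was reduced to its peak of smallest p. Coding shares were then 89.8% and 94.0% in METTL16, 82.1% and 65.5% in eIF3a and 83.3% and 78.2% in eIF3b, against 60.1% to 73.2% over all listed genes. The excess over all genes was 25.0 and 20.8 percentage points in METTL16, 22.0 and 1.67 in eIF3a and 19.9 and 16.9 in eIF3b. Among the 5000 peaks of smallest p the excess was 25.8 and 21.3, 20.8 and 13.6, and 21.6 and 17.3 percentage points, so it was present in every list. Among peaks of at least 4-fold enrichment the splicing genes had coding shares of 56.0% and 70.6% in METTL16, 38.0% and 0% in eIF3a and 56.8% and 51.0% in eIF3b, against 51.5% and 60.8%, 48.2% and 57.2%, and 53.2% and 46.9% over all such peaks. The shares of the splicing genes rest on 25 and 17 peaks in METTL16, 50 and 9 in eIF3a and 37 and 49 in eIF3b. METTL16 replicate 1 lay below eIF3b replicate 1 here, so these 2 proteins overlapped.

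Counted by gene, a peak centred in coding sequence was present on 48 and 48 of the 62 genes in METTL16 (77.4% in each, against 40.8% and 47.8% of all listed genes), 51 and 22 in eIF3a (82.3% and 35.5% against 55.4% and 34.9%) and 50 in each eIF3b list (80.6% against 56.8% and 51.9%). A peak centred in the 3′ UTR was present on 9 and 4 genes in METTL16 (14.5% and 6.45% against 22.9% and 18.8%), 30 and 15 in eIF3a (48.4% and 24.2% against 40.7% and 22.6%) and 21 and 24 in eIF3b (33.9% and 38.7% against 32.6% and 36.2%). The splicing genes thus lay below all listed genes in 3′ UTR peaks in METTL16 alone, a comparison of shares with no test. By family, coding peaks made up 84.8% of METTL16 peaks and 53.7% and 49.1% of eIF3a and eIF3b peaks in SR genes, and 80.0%, 50.7% and 64.5% in hnRNP genes. For SF3A and SF3B the shares were 96.7%, 64.9% and 83.3%, for PRPF 87.9%, 76.4% and 72.7%, and for SNRP 76.5%, 31.6% and 42.9%. U2AF, with 6 to 7 peaks per protein, had 66.7%, 28.6% and 71.4%, so that eIF3b stood above METTL16. In PRPF, eIF3a replicate 2 (85.0%) stood above METTL16 replicate 2 (83.3%).

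**Figure D3:**
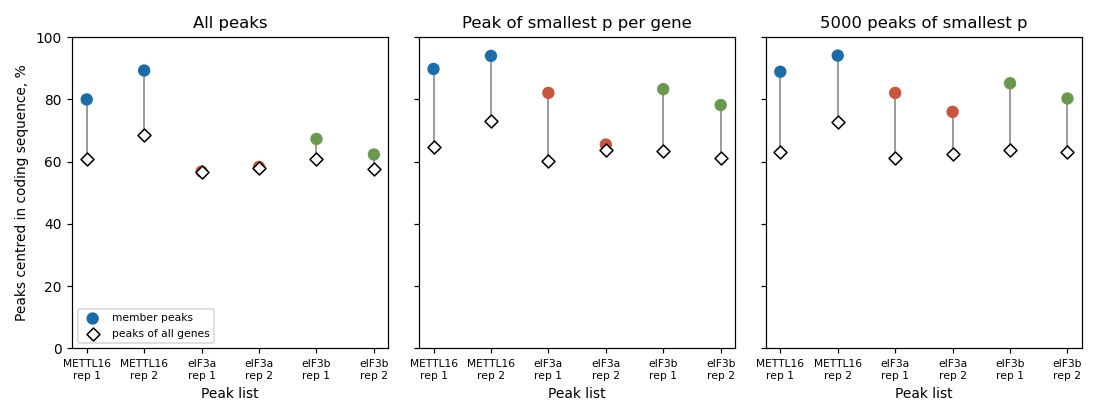
Share of peaks centred in coding sequence (%, y axis) in the 6 peak lists (x axis) for the splicing genes and for all peaks, using all peaks, the peak of smallest p per gene and the 5000 peaks of smallest p. With all peaks, METTL16 stands at 80.0% and 89.3% and the eIF3 lists at 56.8% to 67.3%; with the peak of smallest p per gene the splicing genes stand above all genes in every list.

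Peaks on the splicing genes were centred nearer the 5′ end of the mRNA than peaks in general. On a scale from 0 at the 5′ end to 1 at the 3′ end, the median centre was 0.286 and 0.282 in METTL16, 0.402 and 0.407 in eIF3a and 0.336 and 0.353 in eIF3b, against 0.430 and 0.394, 0.456 and 0.461, and 0.417 and 0.445 over all peaks. The 2 METTL16 lists lay below the 4 eIF3 lists (0.284 ± 0.00305 against 0.374 ± 0.0357, SD), with an exact permutation p of 0.133. Within the reading frame the coverage leaned to the later part: the mean share covered was 25.5% over the first 50% of its length and 40.1% over the last 50% in METTL16 replicate 1, and 39.7% and 41.5% in replicate 2. In eIF3a it was 42.4% and 51.1% in replicate 1 and 17.8% and 28.2% in replicate 2, and in eIF3b 40.7% and 51.5%, and 43.8% and 58.2%. Over all listed genes the same pairs differed by less in percentage points, for example 17.3% and 20.3% in METTL16 replicate 1 and 19.3% and 22.7% in eIF3b replicate 2. In eIF3a replicate 2 all listed genes leaned the other way, with 22.1% and 20.7%. In METTL16 replicate 2 the pair over all listed genes was 23.1% and 24.3%, a similar lean relative to its lower coverage.

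Peaks over the start codon were 12 and 10 in METTL16 (10.9% and 11.9% of the peaks, against 7.87% and 8.85% over all), 21 and 3 in eIF3a (13.0% and 4.17% against 5.57% and 5.17%) and 21 and 20 in eIF3b (14.3% and 13.0% against 9.75% and 6.59%). Peaks over the stop codon were 16 and 11, 24 and 8, and 22 and 31, or 11.1% to 20.1% of the peaks against 5.56% to 9.38% over all. Neither share separated METTL16 from eIF3, with exact permutation p-values of 1.00 and 0.600 over the 2 and 4 lists.

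The median width of a peak, counted over exon bases, was 210 and 240 bases in METTL16, 209 and 180 in eIF3a and 211 and 210 in eIF3b, against 180 and 180, 180 and 210, and 210 and 181 over all peaks. METTL16 was wider than eIF3a by 30.2 bases and eIF3a narrower than eIF3b by 16.0, in both cases without overlap of the lists (exact permutation p = 0.333, the smallest 2 against 2 lists can give), whereas METTL16 and eIF3b overlapped, with a difference of 14.2 bases (exact p = 1.00). The lack of overlap was marginal, as eIF3a replicate 1 stood at 209 bases and METTL16 replicate 1 and eIF3b replicate 2 at 210. Summed over a gene, the difference between METTL16 and eIF3a turned to -116.0 bases. More of the peaks crossed an exon junction than among all peaks, with 60.0% and 70.9% in METTL16, 48.5% and 48.6% in eIF3a and 61.9% and 51.9% in eIF3b, against 37.9% to 45.7%. The widest single peaks reached 986 and 1163 bases in METTL16, 2066 and 1981 in eIF3a and 1886 and 2245 in eIF3b. PRPF4B, SF3B1 and SRSF1 had the widest peaks by the median of each list's widest, at 1407.5, 1138 and 1090.5 bases.

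Summed over a gene, the peaks covered a median of 507 and 432 bases in METTL16, 750 and 422 in eIF3a and 780 and 897 in eIF3b, against 301 and 301, 360 and 446, and 447 and 392 over all listed genes. The median share of coding sequence covered was 30.3% and 35.9% in METTL16, 43.0% and 14.3% in eIF3a and 46.1% and 52.7% in eIF3b, against 11.5% to 16.4% over all listed genes. Over the whole mRNA it was 14.3% and 16%, 25.2% and 9.09%, and 24.1% and 25.4%, against 9.44% to 13.1%. In eIF3a replicate 2 the covered share of both was near the background.

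**Figure D4:**
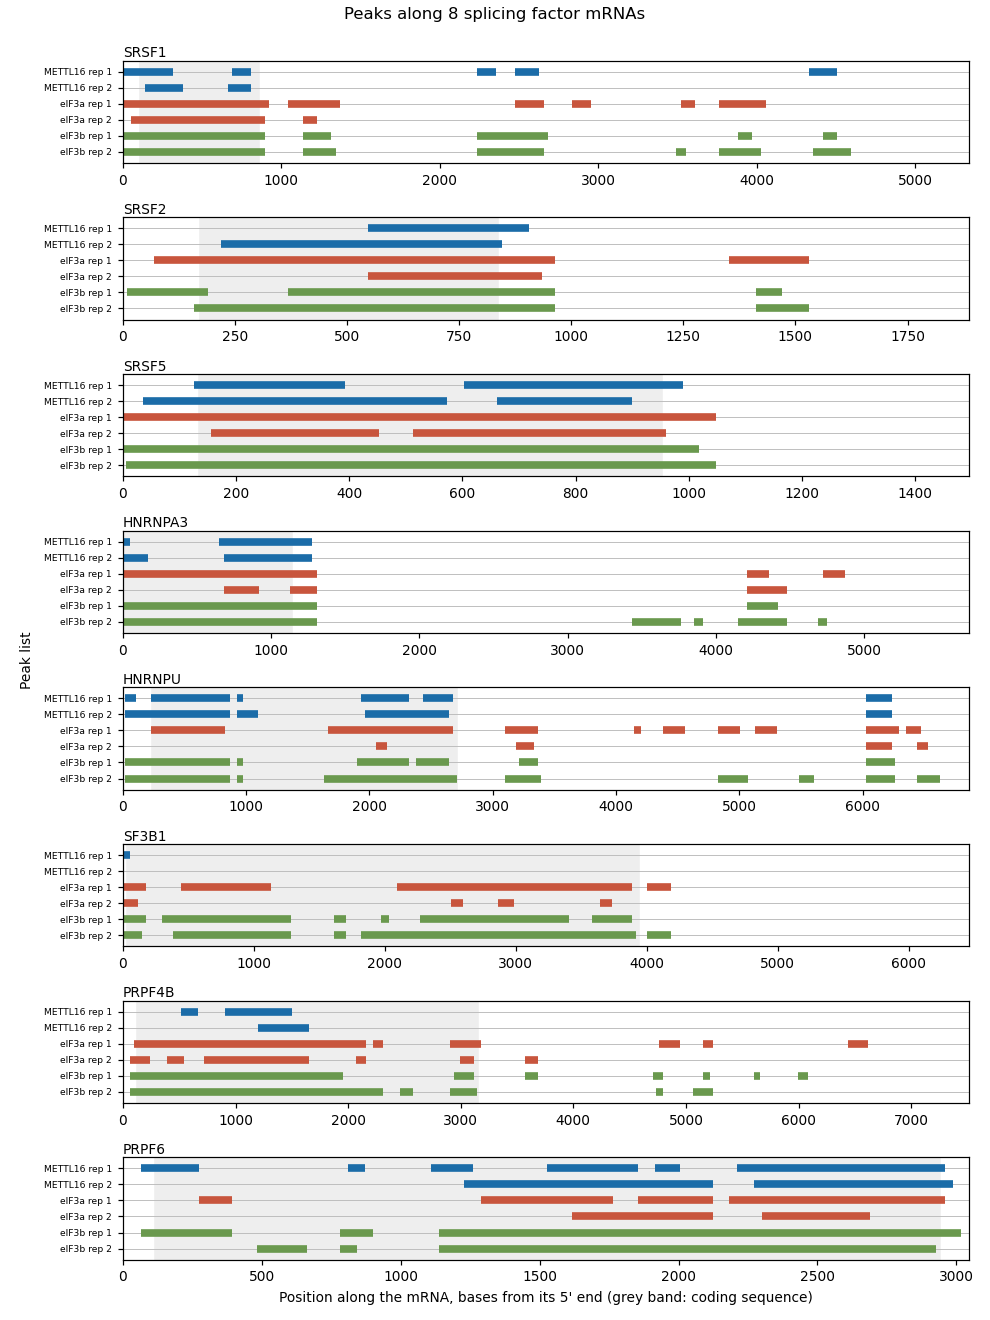
Peaks along the canonical mRNA (x axis, position in bases from the 5′ end, with the coding sequence as a grey band) of SRSF1, SRSF2, SRSF5, HNRNPA3, HNRNPU, SF3B1, PRPF4B and PRPF6 in each peak list (rows). Each bar is a stretch of exon bases under a peak; SRSF1 is covered over its whole coding sequence in the 4 eIF3 lists, whereas SF3B1 has 0.690% of its coding sequence covered in METTL16 replicate 1 and no peak in replicate 2.

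In 19 of the 23 genes with a peak in every list (82.6%), the peaks of all 6 lists met on the same bases, against 62.9% of the 2730 listed genes with a peak in every list, and in 15 of the 19 over at least 100 bases. These shared bases summed to 4176, of which 3456 (82.8%, against 59.3% over all listed genes) were coding, 540 lay in the 3′ UTR and 180 in the 5′ UTR. PRPF6 had the most, with 630 bases, followed by SRSF5 with 479, HNRNPA3 with 392, SRSF1 with 301 and HNRNPU with 300. In HNRNPU 210 of these were in the 3′ UTR, at chr1:244850928-244851137 on the minus strand in exon 14, the site of the highest enrichments named above. HNRNPD had 180 bases in its 5′ UTR, at chr4:82373758-82373937, and PRPF19 had 121 in its 3′ UTR. PRPF38A, SF3A3, SNRPD3 and SRSF4 had no shared base despite a peak in every list. Without eIF3a replicate 2, 41 genes had a peak in the other 5 lists, 38 of them (92.7%, against 70.7% of 3739 listed genes) with shared bases, 12582 in all, of which 90.4% were coding against 65.2%.

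Several of the shared stretches encode the parts of these proteins that are repetitive. Serine and arginine codons are the units of RS domains, and the share of such codons in the shared stretch against the rest of the reading frame was 71.1% against 25.6% in SRSF2, 55.0% against 20.4% in PRPF4B, 46.2% against 28.3% in SRSF5 and 35.0% against 24.2% in SRSF1. It was 42.5% against 26.8% in PRPF38B and 37.5% against 25.8% in SRSF11, whereas PRPF6 had 12.9% against 12.7%. Without eIF3a replicate 2 the values of SRSF1, SRSF2, SRSF11, PRPF4B and PRPF38B stayed the same, and SRSF5 had 45.5% against 28.3%. The stretches below show this, with serine and arginine codons in capitals, on GRCh38 and in the sense of the mRNA from 5′ to 3′. In exon 8 of SRSF5 (chr14:69771194-69771409, plus strand) they are 53 of 71 whole codons and in exon 4 of SRSF1 (chr17:58005456-58005576, minus strand) 29 of 40. In PRPF4B they are 28 of 53 in exon 2 (chr6:4032594-4032755, plus strand) and 25 of 45 in exon 3 (chr6:4037397-4037534), and in exon 6 of PRPF38B (chr1:108699800-108699919, plus strand) 17 of 39.
SRSF5 exon 8: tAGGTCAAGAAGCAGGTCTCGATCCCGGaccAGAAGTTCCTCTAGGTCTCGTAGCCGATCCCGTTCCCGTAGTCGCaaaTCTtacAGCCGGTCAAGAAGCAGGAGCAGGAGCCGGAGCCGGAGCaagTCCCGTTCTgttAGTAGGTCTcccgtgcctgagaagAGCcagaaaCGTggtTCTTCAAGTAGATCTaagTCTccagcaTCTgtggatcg
SRSF1 exon 4: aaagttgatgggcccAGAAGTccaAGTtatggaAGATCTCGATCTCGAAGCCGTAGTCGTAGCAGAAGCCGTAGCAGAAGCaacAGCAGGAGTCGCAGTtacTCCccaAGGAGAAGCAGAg
PRPF4B exon 2: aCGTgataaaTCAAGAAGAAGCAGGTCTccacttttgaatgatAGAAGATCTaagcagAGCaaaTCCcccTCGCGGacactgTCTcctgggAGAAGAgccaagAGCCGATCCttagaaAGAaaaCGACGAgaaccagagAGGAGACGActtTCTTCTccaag
PRPF4B exon 3: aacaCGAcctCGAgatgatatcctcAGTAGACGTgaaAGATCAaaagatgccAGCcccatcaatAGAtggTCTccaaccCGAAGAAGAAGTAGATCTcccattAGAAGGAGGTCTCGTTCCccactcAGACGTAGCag
PRPF38B exon 6: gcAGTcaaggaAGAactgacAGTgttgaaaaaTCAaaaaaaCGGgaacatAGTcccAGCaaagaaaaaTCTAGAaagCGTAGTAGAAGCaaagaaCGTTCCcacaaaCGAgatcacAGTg

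Not every shared stretch had this make-up. The stretch in exon 1 of SRSF1 (chr17:58006944-58007107, minus strand) holds 5 such codons of 54 and that in exon 17 of PRPF6 (chr20:64027603-64027736, plus strand) 7 of 44, shown for contrast in the same notation.
SRSF1 exon 1: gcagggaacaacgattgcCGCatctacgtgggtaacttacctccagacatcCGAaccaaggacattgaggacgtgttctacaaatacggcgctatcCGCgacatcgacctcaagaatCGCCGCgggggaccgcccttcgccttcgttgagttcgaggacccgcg
PRPF6 exon 17: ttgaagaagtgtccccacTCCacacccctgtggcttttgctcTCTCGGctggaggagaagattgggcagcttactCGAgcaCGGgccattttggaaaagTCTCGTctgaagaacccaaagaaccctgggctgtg

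In 3 hnRNP genes the shared stretch was rich in glycine codons, the unit of the glycine-rich regions of hnRNPs. Glycine codons were 56.5% of it against 18.7% of the rest in HNRNPA3, 48.3% against 20.2% in HNRNPA2B1 and 43.3% against 9.79% in HNRNPUL1. In HNRNPU and HNRNPUL2 they were 3.33% against 13.9% and 1.43% against 10.2%. Without eIF3a replicate 2 the stretches were longer and the glycine shares became 48.2% against 10.0% in HNRNPA3, 34.6% against 9.38% in HNRNPA2B1, 25.0% against 9.91% in HNRNPUL1, 13.4% against 13.7% in HNRNPU and 10.6% against 8.25% in HNRNPUL2. The stretches below have glycine codons in capitals. They are exon 7 (chr2:177216860-177216940, 16 of 26 whole codons) and exon 8 (chr2:177217705-177217797, 17 of 30) of HNRNPA3 on the plus strand, exon 6 of HNRNPA2B1 (chr7:26196401-26196481, minus strand, 11 of 26) and exon 12 of HNRNPUL1 (chr19:41302802-41302892, plus strand, 13 of 30).
HNRNPA3 exon 7: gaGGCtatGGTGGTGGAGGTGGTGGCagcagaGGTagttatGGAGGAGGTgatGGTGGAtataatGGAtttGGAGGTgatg
HNRNPA3 exon 8: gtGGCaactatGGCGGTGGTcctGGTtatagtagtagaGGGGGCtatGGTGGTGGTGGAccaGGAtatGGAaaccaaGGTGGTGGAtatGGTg
HNRNPA2B1 exon 6: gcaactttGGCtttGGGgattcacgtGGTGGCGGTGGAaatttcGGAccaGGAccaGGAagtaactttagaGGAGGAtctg
HNRNPUL1 exon 12: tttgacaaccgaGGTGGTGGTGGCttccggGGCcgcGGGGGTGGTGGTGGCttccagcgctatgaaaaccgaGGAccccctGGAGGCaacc

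Of the 14 genes with 20 or more whole codons shared by all lists, serine and arginine codons were more frequent in the shared stretch than in the rest in 12 (85.7%, against 53.0% of 1030 listed genes), with PRPF6 and PRPF3 near ties, and glycine codons in 4 (28.6% against 48.5%). Without eIF3a replicate 2 these counts were 22 of 34 (64.7% against 54.0% of 1786) and 13 of 34 (38.2% against 51.0%). Taken list by list, the SR genes had 44.5% and 39.2% serine or arginine codons under peaks in METTL16, 37.7% and 41.5% in eIF3a and 38.8% and 40.9% in eIF3b, against 30.9% and 35.2%, 36.9% and 33.6%, and 35.4% and 29.0% outside. PRPF genes had 19.8% to 23.9% under peaks and 11.9% to 16% outside, and SF3A and SF3B genes had no such lean, with 9.82% to 10.6% under peaks and 10.3% to 11.2% outside. In hnRNP genes glycine codons were 15.7% to 21.4% under peaks and 12.3% to 14.5% outside. Over all listed genes serine and arginine codons were 15% to 15.4% under peaks and 13.9% to 14.2% outside. The lean in SR and hnRNP genes is a sum over codons and was not shared by all genes. Among SR genes with at least 20 codons on either side, serine and arginine codons were the more frequent under peaks in 9 of 10 and 3 of 7 in METTL16, 2 of 4 and 4 of 5 in eIF3a and 5 of 8 and 5 of 7 in eIF3b. SRSF7 went the other way, with 21.0% under peaks and 56.3% outside in METTL16 replicate 1, 37.1% and 54.5% in replicate 2 and 35.5% and 59.8% in eIF3b replicate 1, as did SRSF10 in eIF3a replicate 1 with 29.8% and 54.9%. Glycine codons were the more frequent under peaks in 10 of 18 and 9 of 18 hnRNP genes in METTL16, 5 of 16 and 3 of 8 in eIF3a and 12 of 17 and 7 of 16 in eIF3b. PRPF genes leaned to serine and arginine codons in 7 of 9, 6 of 8, 7 of 10, 5 of 6, 9 of 12 and 9 of 10 genes, in the order METTL16, eIF3a and eIF3b. These codon counts were added after seeing the data and are a description with no test; codons of a gene are not independent, and a gene covered in full has no codons outside.

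**Figure D5:**
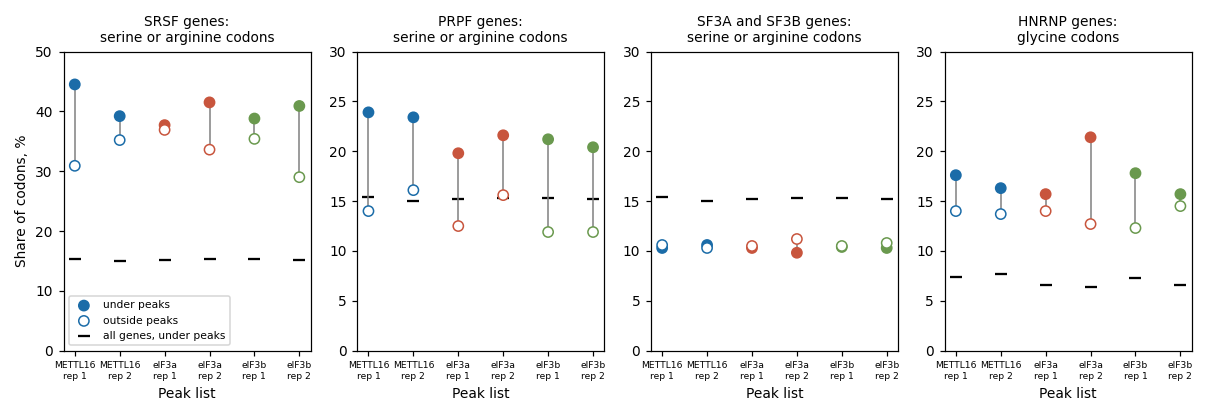
Share of codons (%, y axis) under peaks and outside peaks in each of the 6 lists (x axis): serine or arginine codons in SR, PRPF and SF3A or SF3B genes and glycine codons in hnRNP genes. Filled points are codons under peaks, open points codons outside them and dashes all listed genes under peaks. Values under peaks are the higher ones in all 6 lists for SR, PRPF and hnRNP genes, and in SF3A and SF3B genes both stay between 9.82% and 11.2%.

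Sequence features of the peaks were counted on the transcript strand. GC content over the peaks of splicing genes was 53.5% and 55.9% in METTL16, 48.3% and 47.9% in eIF3a and 51.3% and 48.5% in eIF3b, and in every list it was lower than over all peaks (59.0% and 60.8%, 53.7% and 53.1%, and 58.1% and 54.1%). GAAGAA, a purine motif of exonic splicing enhancers, was in 32.7% and 40.7% of METTL16 peaks, 30.7% and 26.4% of eIF3a peaks and 29.9% and 35.1% of eIF3b peaks, against 17.4% to 25.1% of all peaks. TTTTTT was in 3.49% to 12.9% against 2.92% to 7.44%. Per kilobase it was rarer than over all peaks in METTL16, at 0.431 and 0.140 against 0.792 and 0.427. The same held in eIF3a replicate 2 (0.669 against 0.761) and eIF3b replicate 1 (0.413 against 0.621). It was more frequent in eIF3a replicate 1 (1.08 against 1.05) and eIF3b replicate 2 (0.899 against 0.817). GAAGAA was more frequent per kilobase in every list, at 2.01 to 2.66 against 1.07 to 1.63. No motif searched, the U6 motif of the next paragraph included, contains another, and wider peaks have more room for each.

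ACAGAGA is the motif around the U6 adenosine that METTL16 methylates. It was in 4.55% and 8.14% of METTL16 peaks on the splicing genes, 6.75% and 5.56% of eIF3a peaks and 6.12% and 9.09% of eIF3b peaks, against 3.31% and 3.27%, 3.90% and 5.36%, and 4.07% and 4.49% of all peaks. METTL16 and eIF3 lists overlapped in this share. The 3 sites below are those in coding sequence, with flanks in the same exon, that lay under peaks of both METTL16 lists, with the motif in capitals on the mRNA strand. HNRNPH1 (chr5:179621268-179621274, minus strand) and HNRNPU (chr1:244855559-244855565, minus strand) were under peaks in every list but eIF3a replicate 2, and HNRNPH2 (chrX:101412209-101412215, plus strand) in both METTL16 lists and eIF3b replicate 2. A match describes the letters and is not a methylated site.
HNRNPH1: cctgaaaaaagACAGAGAaactatgggac
HNRNPH2: tttgaagaaggACAGAGAaaccatgggac
HNRNPU: ggcaacatgccACAGAGAggtggtggcgg

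Peak bases outside the canonical exons made up 2.44% and 0.696% in METTL16, 2.66% and 3.35% in eIF3a and 2.60% and 2.12% in eIF3b, against 1.00% and 0.962%, 1.18% and 0.983%, and 1.45% and 1.13% over all peaks. In every list but METTL16 replicate 2 the splicing genes had the larger share. The exact permutation p of METTL16 against the 4 eIF3 lists was 0.133. Cassette exons of nonsense-mediated decay transcripts, taken as exons with no base on a canonical exon, were annotated in 22 of the 60 placed genes, 33 exons in all. Over all listed genes they were annotated in 2924 of 10755 placed genes. Other transcripts of the gene may carry these exons too. Of the 732 peaks on the splicing genes 0 had a base on them, against 178 of 101848 peaks over all listed genes. Per list that was 0.0761% to 0.265% of all placed peaks. At such rates few or none of 732 peaks would meet a cassette exon, so the 0 does not show a depletion. The lists name genes, not isoforms.

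Over the splicing genes, replicates of a protein and lists of different proteins shared similar parts of their genes. The Jaccard index, the shared part of the union, was 0.713 ± 0.182 (SD, 3 pairs) within proteins and 0.719 ± 0.177 (SD, 12 pairs) between them for genes, with an exact one-sided permutation p of 0.667 over 15 pairings. For exon bases under peaks it was 0.401 within and 0.334 between, with an exact p of 0.133. Over all listed genes the index was 0.614 within and 0.565 between for genes and 0.360 and 0.299 for bases, each with an exact p of 0.067, the smallest possible. The closest pair over the splicing genes was eIF3a replicate 1 with eIF3b replicate 2, at 0.947 for genes and 0.608 for bases. Replicates had 0.741 in METTL16, 0.518 in eIF3a and 0.879 in eIF3b for genes. Without eIF3a replicate 1 the difference for genes turned from -0.00656 to 0.163, and without METTL16 replicate 1 to 0.00296, while without eIF3b replicate 2 that for bases turned from 0.067 to -0.00137.

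Splicing genes outside these name families were counted in the same way. Of a list of 63 such genes, which includes SNRNP70, SF1, PTBP1, TRA2B and the CLK kinases, 54 had a peak somewhere. METTL16 bound 34 of these (63.0%), eIF3a 24 (44.4%) and eIF3b 41 (75.9%), against the same backgrounds of 42.6%, 42.4% and 60.0%. All 3 proteins bound 18 of them (33.3%), against 25.2% of all listed genes. Their peaks were centred in coding sequence in 79.1% and 88.1% of cases in METTL16, 72.6% and 74.5% in eIF3a and 76.9% and 73.3% in eIF3b. Over all peaks of the same lists the shares were 61.0% and 68.7%, 56.8% and 58.0%, and 61.0% and 57.7%. These genes thus stood above all peaks in every list. The genes of the name families had been at the background in eIF3a (56.8% and 58.3%). The difference was not tested.

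Of 76 annotated protein coding genes that match the symbols, 15 had no peak in any list: HNRNPA1, HNRNPA1L3, HNRNPCL1, HNRNPCL2, HNRNPCL3, HNRNPCL4, HNRNPUL2-BSCL2, PRPF31, SF3B5, SF3B6, SNRPE, SNRPF, SNRPG, SRSF12 and U2AF1L4. Their canonical mRNAs had a median of 1560 bases against 3047 for the genes with a peak. The absence of HNRNPA1, the classic hnRNP that represses exons, stands beside peaks on HNRNPA1L2, a near-identical copy, in every list but eIF3a replicate 2, so peaks on HNRNPA1L2 are uncertain in origin. Peaks that lie on exons of another gene as well numbered 118 of 732, among them 17 in SRSF1 and 12 in HNRNPA3, where the other gene, NFE2L2, is on the opposite strand. Whether peaks were called by strand is not given in the sources used here.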

How the data were processed

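RIP-seq for 3 proteins in HepG2 (6 RIP samples and 6 inputs) was taken as the 6 deposited peak lists, grouped by the labels. Per the submitters' processing notes and the study's methods, reads were mapped to GRCh38 with STAR, and peaks were called per RIP sample with exomePeak at default parameters. Versions, the annotation and the pairing of inputs are not given in the sources used here. For each peak the authors deposited a p-value, a score (log10 of the p-value and of its adjusted form) and a ratio, the fold of RIP over input reads. These values served only to rank, filter or describe peaks within a list. Depth is unknown, and Wilson intervals (95%) cover counting error only.

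Genes were matched to GENCODE release 44 (10291 of the names by symbol, 464 by older symbol, 75 not matched). A peak was placed if 50% or more of its bases fell on exons of its gene, which held for 99.2% to 99.5% per list, and was assigned to a region through the Ensembl canonical transcript first. Coordinates count from 1. Python 3.11.15, pandas 2.3.3, numpy 2.4.6, scipy 1.17.1, pysam 0.24.0 and matplotlib 3.10.9 were used, and the interval arithmetic and exact tests were tested on simulated data. Proteins were compared over lists by exact permutation tests, with Benjamini-Hochberg adjustment over the 3 pairs. Members are not replicates, so shares of members had no set test.

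The members, gene lists and tests were chosen with earlier results of these data known. Genes named in the text were the best ranked in each family, those listed for some proteins only, those without a peak, a fixed list, those with the widest or most enriched peaks and those with the most bases shared by all lists. HNRNPA0, HNRNPAB, HNRNPH1, HNRNPH2, HNRNPH3, HNRNPL, HNRNPM, HNRNPUL1, PRPF38B, SF3A2, SRSF4, SNRPC, SNRPB2, SNRPD2, HNRNPF, PRPF18, SF3B4, SRSF10 and U2AF1L5 were named for single counts or values after these were seen. Protein sequences were not used here, and codon counts on the genome replaced a planned count of residues. Alternatives were only peaks of at least 4-fold, the 5000 peaks of smallest p, each list left out, other gene sets and lengths, and other measures of position and width. Shared bases without eIF3a replicate 2, and their values over all listed genes, were added after seeing the data.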

Additional observations from a re-analysis of the deposited data

How the results depend on the processing

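Of 198 alternative values for 26 results, 162 kept the direction and, for a share bound, moved it by less than the spread between replicates, which is wide for eIF3a. A further 18 moved a share by more and 18 turned a direction. The cause was not tested. The share of splicing genes bound by METTL16 was 69.4%, and it became 16% with peaks of at least 4-fold only, 48.4% with the 5000 peaks of smallest p, 93.5% with a peak in either replicate, 56.6% over all annotated genes of these names, 80.0% over long genes, and 79.0% to 83.9% with 1 list left out. For eIF3a (46.8%) it became 8.06% at 4-fold, 24.2% with the 5000 peaks, 90.3% in either replicate, and 46.8% to 90.3% with 1 list left out. For eIF3b (82.3%) it became 38.7%, 53.2%, 93.5%, 67.1% and 96.7% in the order given for METTL16, 85.0% with current symbols, and 87.1% to 88.7% with 1 list left out. With a list left out, 1 list decides the share, which can then not be lower than with both.

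The difference in share with a peak between METTL16 and eIF3a turned from 12.9 to -1.61 percentage points at 4-fold, and lay between -8.87 and 34.7 with 1 list left out. That between eIF3a and eIF3b (-19.4) lay between -41.1 and 2.42. The excess over all genes, METTL16 against the eIF3 lists, turned from 14.1 to -5.67 at 4-fold. The difference in width between METTL16 and eIF3a turned from 30.2 to -116.0 bases when bases were summed per gene. For METTL16 against eIF3b it turned from 14.2 to -369.0 bases in that way, to -61.5 at 4-fold and to -112.0 with the 5000 peaks, and lay between -0.500 and 29.0 with 1 list left out. Bases outside canonical exons turned at 4-fold from -1.43 to 1.20 percentage points for METTL16 against eIF3a and from 0.642 to -2.22 for eIF3a against eIF3b, and lay between -1.66 and 0.0810 for METTL16 against eIF3b with 1 list left out.

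Agreement over genes turned from -0.00656 to 0.0838 at 4-fold and 0.0652 with the 5000 peaks, and lay between -0.0707 and 0.163 with 1 list left out. Agreement over bases lay between -0.00137 and 0.213. The differences in coding share, 3′ UTR share and relative position kept their direction under every alternative run for them, though the coding excess of METTL16 over the eIF3 lists shrank from 16.9 to 5.22 percentage points with the 5000 peaks.

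Replicate numbers are shared by the 3 proteins, but same-numbered lists did not deviate together (correlations of 0.00124, -0.0130 and -0.0431 over 10830 genes), so the numbers were not taken as pairs. With the replicate block, the mean differences are the same by construction (27.1 and 19.8 percentage points in coding share), and agreement over genes with the same-numbered pairs only was 0.00872. With 2 lists per protein no test could pass the threshold.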
